A study of Rattus norvegicus with 8 samples.

Results

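The genes described here are 40 cell cycle and DNA replication genes, measured in the intestinal epithelium of rats that drank different waters. They were taken from a fixed list of names, which was chosen with earlier results of these data known. A single-gene probe set, meaning one whose annotation names 1 gene, was found for 37 of the 40, and 30 of these had a mean signal above the median of all probe sets and entered the tests. The whole array held 31099 probe sets, which gave 14217 genes in this way, and 9258 of them were tested. Hmgb2 and Rrm2 had only probe sets that name several genes, and Tpx2 was matched to no probe set by its symbol. The members closest to the filter were Mcm5, with a mean signal of 6.82, and Kif20a, which stayed out with 6.19.

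Wistar rats aged 4 months were given tap water (TW), 1200 hardness deep sea water (DSW1200) or selenium water (SeW) for 3 days, or were kept under water restriction (WR) for 12 hours. The study's methods describe female animals and loosened epithelial cells collected from the proximal small intestine after chelation of calcium, so each sample is a mixture of cells from villus and crypt. Every group had 2 arrays, and the sources used here do not say whether the arrays of a group came from separate animals, so the p-values measure the spread between these samples, which may be technical. In such bulk RNA, fewer cells of a type and less RNA per cell cannot be told apart. The median deposited signal ran from 4.30 on TW replicate 2 to 11.1 on SeW replicate 1, and the arrays were brought to a common distribution before testing. Correlations between the arrays of a group ranged from 0.946 to 0.976 over the tested genes, which leave out the dim ones.

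Cells of the small intestine divide in the crypts, where stem cells and their transit-amplifying daughters pass through the cycle before they differentiate and move up the villus. A cell that commits to division uses D- and E-type cyclins with their kinases to enter S phase. It then opens its origins with the MCM helicase, copies its DNA behind the sliding clamp with nucleotides made by ribonucleotide reductase and thymidylate synthase, and goes through mitosis under cyclin A, cyclin B and the mitotic kinases. Many of these genes are transcribed in waves, with E2F factors acting at E2F sites for the S phase genes, and the DREAM complex and its partners acting at cell cycle homology regions (CHR) and CCAAT boxes for the mitotic genes.

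Promoter sequences are shown for 5 members on which the comparisons below turn, as the 200 bases before the start of the gene, 5′ to 3′ on its strand, from RefSeq on the GRCr8 build. Capitals mark 3 motifs, each searched on both strands. The E2F core was searched in the form TTCCCGC, then in the related form TTCGCGC, as well as in the form TTGCCGC and finally in the form TTGGCGC. The CHR was searched as TTTGAA and in the less common form TTCGAA. The CCAAT box carries its letters in its name and reads ATTGG on the opposite strand.
Nusap1, chr3:127057095-127057294, plus strand: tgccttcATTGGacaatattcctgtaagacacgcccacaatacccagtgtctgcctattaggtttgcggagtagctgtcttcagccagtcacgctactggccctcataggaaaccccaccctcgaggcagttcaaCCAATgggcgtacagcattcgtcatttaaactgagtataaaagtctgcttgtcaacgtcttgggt
Mcm7, chr12:22163179-22163378, minus strand: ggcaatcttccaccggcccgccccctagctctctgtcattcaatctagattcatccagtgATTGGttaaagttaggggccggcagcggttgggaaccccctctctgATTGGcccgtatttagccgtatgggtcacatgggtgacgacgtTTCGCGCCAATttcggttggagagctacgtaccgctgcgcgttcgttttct
Stmn1, chr5:151964979-151965178, plus strand: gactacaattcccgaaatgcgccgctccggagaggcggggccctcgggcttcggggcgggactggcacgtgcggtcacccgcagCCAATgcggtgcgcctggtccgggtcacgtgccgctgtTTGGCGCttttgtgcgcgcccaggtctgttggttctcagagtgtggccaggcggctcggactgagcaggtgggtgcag
Mki67, chr1:199952594-199952793, minus strand: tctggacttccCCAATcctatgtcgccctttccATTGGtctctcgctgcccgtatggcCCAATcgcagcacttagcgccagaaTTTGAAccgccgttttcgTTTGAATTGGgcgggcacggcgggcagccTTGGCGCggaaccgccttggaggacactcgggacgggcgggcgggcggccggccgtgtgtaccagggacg
Pcna, chr3:139955821-139956020, minus strand: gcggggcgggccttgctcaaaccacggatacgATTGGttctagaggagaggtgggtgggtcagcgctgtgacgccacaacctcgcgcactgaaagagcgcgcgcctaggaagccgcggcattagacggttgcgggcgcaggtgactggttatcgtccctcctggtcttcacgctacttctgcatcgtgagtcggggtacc

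A promoter entry was found for 33 of the 40 members, those without one being Ccnd1, Mcm4, Rrm2, Ccna2, Aurkb, Tpx2 and Ube2c. Within the 250 bases before the start, an E2F core was present in 11 of the 33 members, against 7.97% of 27457 promoters in the table. The CHR was present in 14 of the 33, against 17.3% of all promoters, and the CCAAT box in 24 of the 33, against 34.3%. Nusap1 has a CCAAT box ending 61 bases before the start, and neither an E2F core nor a CHR with these letters in the window. In Mcm7 an E2F core and a CCAAT box overlap, as the last capitals of its sequence show. Mki67 holds all 3 motifs, and in one place a CHR overlaps a CCAAT box. Mcm7, Rrm1, Ccnb2 and Cdk1 also hold all 3 within the 250 bases. The nearest CHR of Mcm7, 236 bases before the start, lies outside the stretch shown. These matches describe letters and not binding.

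The levels of the members were first compared across the 8 arrays. On each array the median log2 signal of the 30 tested members was set against the median of all 9258 tested genes, and only differences between arrays are read from it. The value was -2.17 and -2.46 in TW, -1.66 and -1.31 in WR, -1.85 and -1.82 in DSW1200, while SeW had -1.19 and -1.74. Both TW arrays were thus the lowest, with no overlap with any other group, and the SD within groups was 0.257. TW had the lowest group mean for 23 of the 30 members, whereas it was lowest for 23.1% of all tested genes. Ccna2, Nusap1, Cdc20, Kif23 and Mcm5 had TW means of 4.54, 5.78, 5.10, 3.76 and 3.28, under the filter of 6.69. They passed it through the other groups, so a low TW is partly fixed by the filter for these genes. SeW had the highest mean for 15 members, against 28.3% of all genes, and WR for 12, against 21.4%.

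**Figure D1:**
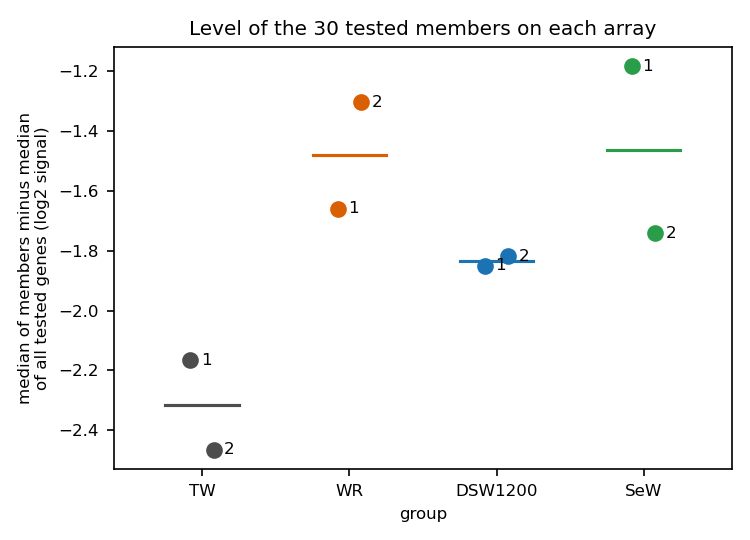
Median log2 signal of the 30 tested members less the median of all tested genes (y axis) on each array, by group (x axis). Points are arrays with their replicate number and lines are group means, and the TW arrays, at -2.17 and -2.46, lie below the other 6.

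The arrays within a group also differed for these genes. In SeW, replicate 1 was higher than replicate 2 for 26 of the 30 members, with a median difference of replicate 2 less replicate 1 of -0.49 on the log2 scale. In WR, replicate 2 was higher for 25 of the 30, with a median difference of 0.38. The TW arrays differed the other way round, replicate 1 being higher for 20 members. DSW1200 showed no such lean, with 14 members higher in replicate 2 and 15 in replicate 1. Most members are dim, 5.07% of the values of the 37 measured members were at the floor of the scale, and the median standard error (SE) of a difference was 0.41 for the members against 0.26 for all genes on the log2 scale.

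**Figure D2:**
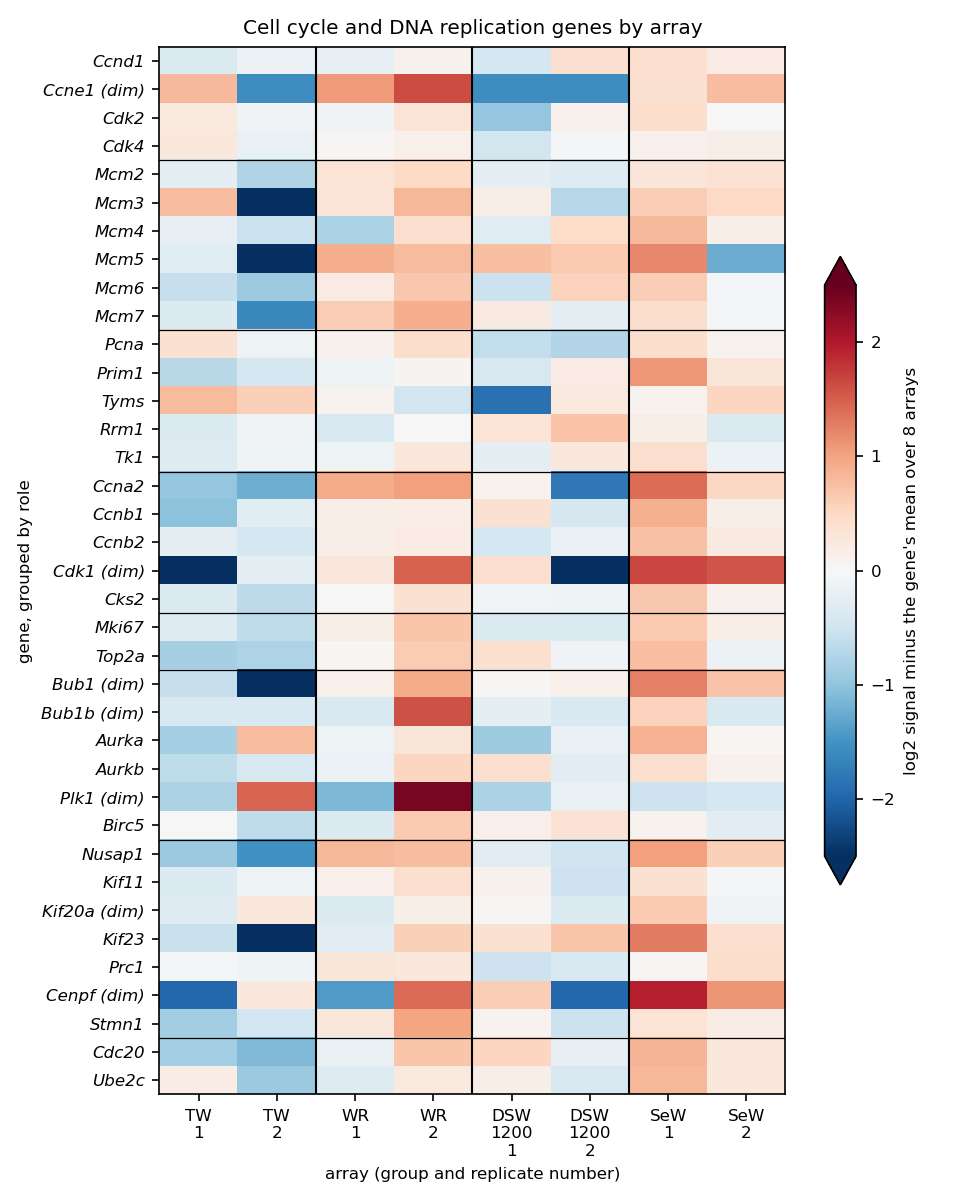
Log2 signal of the 37 measured members (rows, grouped by role) on each of the 8 arrays (columns), less the mean of each gene over the arrays. Red is above and blue below the gene's own mean, "dim" marks the 7 members below the filter, and the TW columns are mostly blue while SeW replicate 1 is mostly red.

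Values that could move with the members are given here for the same arrays. The beta-actin 3'/5' ratio, which grows as RNA is degraded or shortened, was 24.1 and 20.6 in TW, 21.1 and 24.8 in WR, 32.8 and 27.1 in DSW1200, against 13.6 and 10.9 in SeW. All 10 epithelial markers were tested, and their summed signal was 18248 to 18724 in TW and 17939 to 18066 in WR. It was 17200 to 18172 in DSW1200 and 20206 to 20805 in SeW. The summed signal of 12 villus enterocyte markers was 36367 to 39353 in TW, 32760 to 35016 in WR, 36194 to 36205 in DSW1200 and 41920 to 43719 in SeW. Crypt stem cell markers were mostly dim, with 4 of 9 measured genes tested and Lgr5, Ascl2, Tnfrsf19, Cdca7 and Znrf3 below the filter, and the sum over the 9 was 134 to 166 in TW, 166 to 203 in WR, 161 to 187 in DSW1200 and 140 to 214 in SeW. For 7 Paneth cell markers the sum was 851 to 939 in TW, 1601 to 1910 in WR, 719 to 2266 in DSW1200 and 1276 to 1687 in SeW, with Defa5 at the floor on every array. Defa24, a Paneth cell defensin, rose in WR and in SeW against TW, with adjusted p = 0.00934 and 0.0166 by limma. T and intraepithelial lymphocyte markers summed to 385 to 458 in TW, 507 to 552 in WR, 513 to 573 in DSW1200 and 283 to 308 in SeW, each of the 3 groups lying apart from TW, and 9 of 10 tested genes had means below TW in SeW. Myeloid markers had means below TW in SeW for 11 of 11 tested genes, with a sum of 2933 to 3196 in TW and 2685 to 2758 in SeW. Fibroblast and muscle markers had means above TW for 9 of 10 genes in both WR and SeW and for all 10 in DSW1200. Their sum, 192 to 355 in TW, was 355 to 461 in WR, 256 to 492 in DSW1200 and 310 to 348 in SeW. Goblet cell markers summed to 12385 to 13003 in TW and to 11215 to 11722 in DSW1200, with the WR and SeW arrays on both sides of the TW range. The sum of B and plasma cell markers ran from 1250 to 1771 with TW overlapping each other group, and 3 erythroid markers summed to 46.8 to 158. The part of these values in the results below was not tested.

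WR against TW asks how the epithelium of animals deprived of water differs from that of animals that drank. The WR mean lay above the TW mean for 28 of the 30 members, and this was so for 48.9% of all tested genes. The median difference was 0.62 for the members and -0.011 for all genes on the log2 scale. No member passed an adjusted p of 0.05 by limma, against 0.0108% of all genes, and the lowest adjusted p among members was 0.334. At an unadjusted p under 0.05 there were 11 members, against 9.70% of all genes. The groups did not overlap and WR was higher for 18 members (18.4% of all genes), and WR was lower without overlap for 1 member (21.3%).

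The smallest p-values were those of spindle genes and a replication gene. Nusap1, a microtubule-binding protein of the mitotic spindle, had a signal of 6.91 and 4.64 in TW and of 23.5 and 22.6 in WR. Both WR arrays were far above both TW arrays, and the difference was 2.03 on the log2 scale (SE 0.39, adjusted p = 0.334 by limma). Mcm7, a subunit of the MCM helicase, had 17.9 and 7.44 in TW against 35.6 and 42.7 in WR, again without overlap, a difference of 1.76 (SE 0.42, adjusted p = 0.373 by limma). Stmn1, or stathmin, which destabilises microtubules, had 19.0 and 24.8 in TW against 42.0 and 68.3 in WR, a difference of 1.30 (SE 0.32, adjusted p = 0.373 by limma). The groups were apart for all 3 genes, a gap that picking by p-value favours, and none passed the adjustment. WR was above TW without overlap for 18.4% of all genes.

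DSW1200 against TW asks what the mineral-rich water does relative to plain water. The DSW1200 mean was above the TW mean for 24 of the 30 members, against 47.6% of all genes, with a median difference of 0.42 for the members and -0.021 for all genes. No member was called, and neither was any of the genes tested (0%). By limma, 6 members had an unadjusted p under 0.05, against 7.92% of all genes. DSW1200 was higher without overlap for 12 members (16.6% of all genes) and lower without overlap for 3 (19.2%). With the beta-actin ratio as a covariate the members' median less that of all genes went from 0.44 to -0.026, so the direction of this small difference turns with that adjustment. Both DSW1200 arrays had the highest ratios, 32.8 and 27.1, so the ratio and the group cannot be told apart.

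Pcna, the sliding clamp of the replication fork, was lowest in DSW1200. Its signal was 523 and 370 in TW, 430 and 547 in WR, 263 and 242 in DSW1200, while SeW had 546 and 427. The DSW1200 arrays were below the 6 others, and the difference from TW was -0.80 on the log2 scale (SE 0.21, adjusted p = 0.617 by limma). Rrm1, the large subunit of ribonucleotide reductase, had 50.3 and 64.6 in DSW1200 and between 29.8 and 43.9 on the other arrays, with a difference from TW of 0.74 (SE 0.27, adjusted p = 0.617 by limma). Kif23, a kinesin of the central spindle needed for cytokinesis, had 6.00 and 1.52 in TW, 7.32 and 13.4 in WR, 11.6 and 14.4 in DSW1200, against 21.7 and 11.8 in SeW. The TW arrays were the lowest for Kif23, by 2.10 against DSW1200 (SE 0.70, adjusted p = 0.617 by limma), although a second, dimmer Kif23 probe set gave -0.24.

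SeW was compared with TW to see how the epithelium differs between selenium water and tap water. For the ulcer experiment, the study's methods describe selenium water as sodium selenite in distilled water. The base water may therefore differ too, and selenium alone is not isolated. The SeW mean was above the TW mean for 29 of the 30 members, against 46.5% of all genes, and the median difference was 0.87 for the members against -0.042 for all genes. Nusap1 was the 1 member that passed the adjusted threshold, which 1.91% of all genes passed. By limma, 13 members had an unadjusted p under 0.05, against 19.6% of all genes. SeW was higher without overlap for 20 members (22.1% of all genes) and lower without overlap for 1 (29.1%). The beta-actin ratio was lowest in SeW, at 13.6 and 10.9 against 20.6 or more on the other arrays. The ratio and the group therefore cannot be told apart. With the ratio as a covariate no member was called, and neither was any of all genes (0%). The members' median less that of all genes was then 1.73, against 0.92 without the covariate. The part of the ratio in these counts was not tested.

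Nusap1 rose in SeW, to a signal of 27.0 and 20.0 from 6.91 and 4.64 in TW, a log2 difference of 2.04 (SE 0.39, adjusted p = 0.0364 by limma). The DSW1200 arrays, at 10.8 and 9.38, were between these, above TW by 0.83 (SE 0.39, adjusted p = 0.617 by limma). A second Nusap1 probe set, with a mean signal of 11.3, gave smaller differences from TW, of 1.14 in WR, 0.66 in DSW1200 and 1.08 in SeW. Averaging both probe sets brought the SeW difference to 1.56 and its adjusted p to 0.110 by limma. The call was also lost without SeW replicate 1 (adjusted p = 0.222 by limma) and without SeW replicate 2 (adjusted p = 0.199 by limma), without TW replicate 2 (0.0924) and without either WR array (0.0745 and 0.0732).

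**Figure D3:**
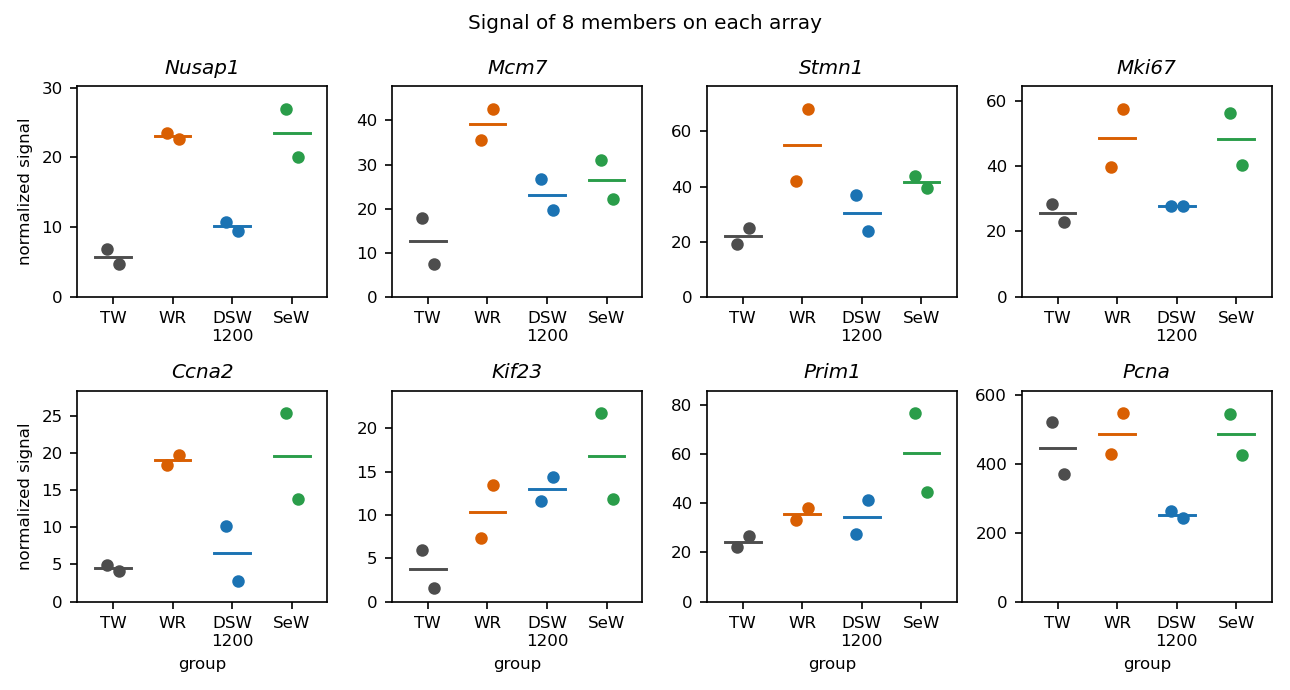
Normalized signal (y axis, linear from 0, own scale for each gene) of 8 members by group (x axis). Points are arrays and lines are group means: Nusap1 is high in WR and SeW, at 20.0 to 27.0, and low in TW, at 4.64 and 6.91, while Pcna is lowest in DSW1200, at 242 and 263.

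Prim1 and Kif23 came next in SeW. Prim1, the catalytic subunit of DNA primase, had 22.2 and 26.7 in TW, 33.1 and 37.9 in WR, 27.4 and 41.3 in DSW1200, while SeW had 76.5 and 44.4. Both SeW arrays were the highest, but they differed from each other, and the difference from TW was 1.26 (SE 0.31, adjusted p = 0.0723 by limma). Kif23, whose values are given above, was 2.40 above TW in SeW (SE 0.70, adjusted p = 0.109 by limma). When TW replicate 1 was left out, Nusap1, Mcm7 and Kif23 were called in SeW and Nusap1 and Mcm7 in WR, but calls over all genes also grew, to 5.60% and 2.34%. The lone TW array, which is the dimmest of the 8, is then assumed to vary like the other groups.

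**Figure D4:**
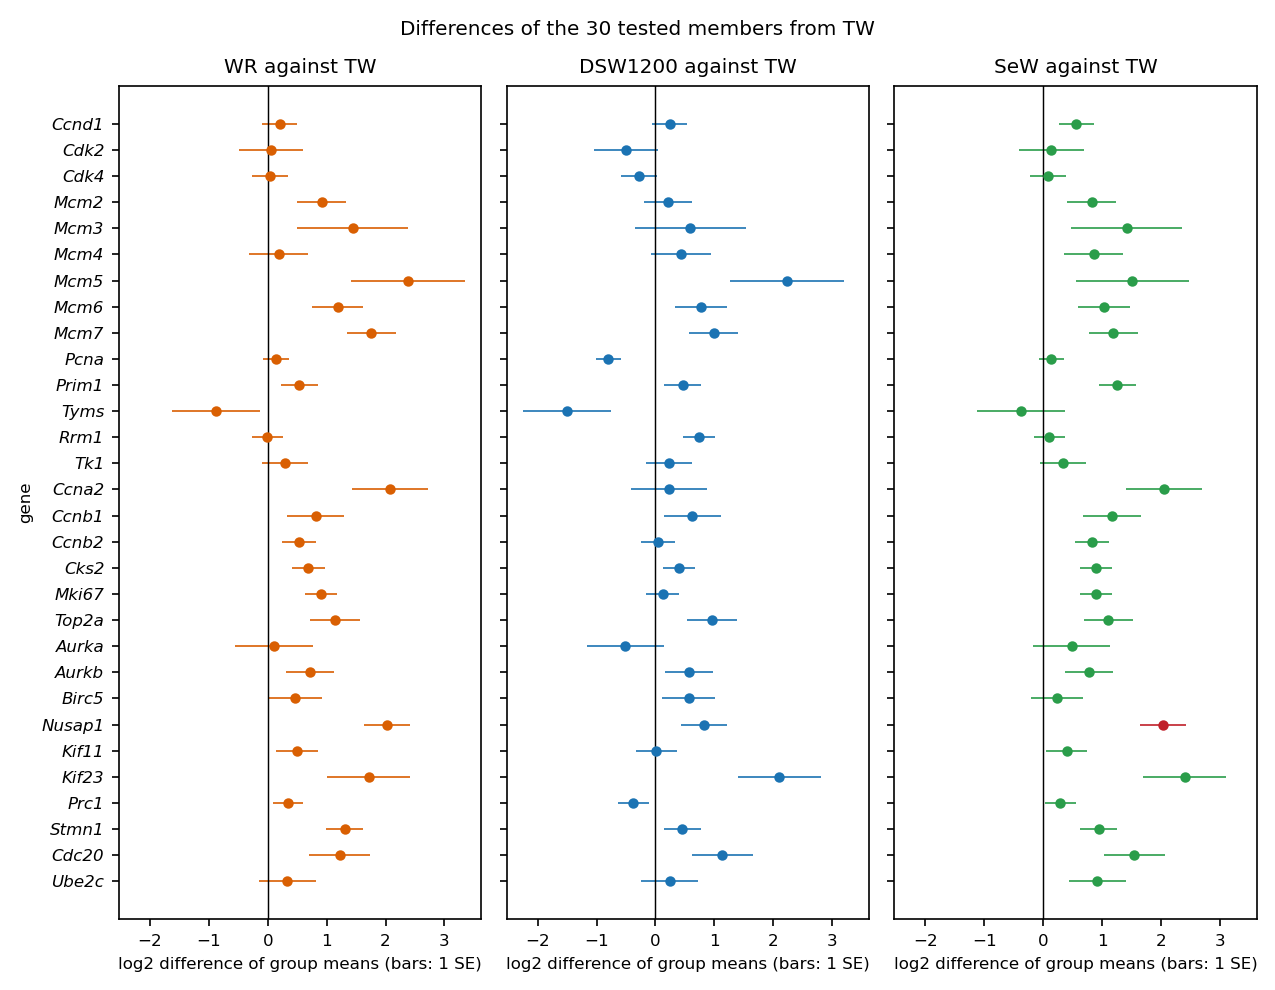
Log2 difference of group means (x axis) of the 30 tested members (y axis) from TW in WR, DSW1200 and SeW, with bars of 1 SE. Nusap1 in SeW, in red, is the 1 difference with an adjusted p under 0.05, and Tyms lies below 0 in every panel; the panels share the TW arrays.

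The members are now described by their role, with the 3 differences from TW side by side. These share the TW arrays, so that a low TW array moves all 3 together. For the tested genes of entry into S phase, Ccnd1, Cdk2 and Cdk4, the probe sets used gave differences of at most 0.56 in size. Ccne1, which was below the filter and near the floor, differed from TW by 1.71 in WR, -1.18 in DSW1200 and 0.94 in SeW. Ccnd1, or cyclin D1, had 31.9 and 36.9 in TW, 35.5 and 44.2 in WR, 30.1 and 55.0 in DSW1200, against 54.5 and 47.2 in SeW, and was above TW by 0.21, 0.24 and 0.56 (SE 0.30). Its other probe sets, of mean signal 13.4 and 12.3, gave larger differences, with WR at 1.56 and 0.82, DSW1200 at 1.61 and 0.66, and SeW at 2.42 and 1.18. Cdk4, the kinase partner of cyclin D, ran from 14.8 to 24.3 over the 8 arrays and lay within 0.28 of TW in every group. Cdk2, which acts with cyclins E and A, ran from 4.46 to 11.7, and its probe sets differ in sign in WR and DSW1200.

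All 6 MCM subunits were tested, and each had a mean above TW in WR, DSW1200 and SeW, with medians of 1.32, 0.68 and 1.11. Among them WR was above TW without overlap for 4 subunits, DSW1200 for 3 and SeW for 4, where 18.4%, 16.6% and 22.1% of all genes did so. Mcm6 had 11.5 and 9.20 in TW, 19.9 and 27.4 in WR, 11.9 and 25.8 in DSW1200, while SeW had 26.5 and 16.6. Mcm2 had 9.59 and 6.69 in TW, 14.3 and 15.9 in WR, 9.51 and 9.0 in DSW1200, against 13.8 and 14.5 in SeW. For both genes the WR and SeW arrays were above the TW arrays. Mcm3 and Mcm5 had SEs of 0.94 and 0.96, with TW replicate 2 at 1.27 and at the floor of 1.00. Mcm4 was within 1 SE of TW in WR, with a difference of 0.18 (SE 0.50).

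The genes of the fork and of nucleotide supply did not move as one. Besides Pcna, Prim1 and Rrm1, Tk1, the thymidine kinase of S phase cells, lay above TW by 0.29, 0.23 and 0.34 in WR, DSW1200 and SeW (SE 0.40). A second Tk1 probe set, of mean signal 8.86, gave 1.29, 0.12 and 1.88, with 14.5 and 1.72 on the TW arrays. Tyms, or thymidylate synthase, was below TW in all 3, with 12.0 and 10.5 in TW, 7.41 and 5.09 in WR, 1.91 and 8.30 in DSW1200, while SeW had 7.39 and 10.1. Both TW arrays had the highest Tyms signal, and its differences of -0.87, -1.50 and -0.38 had an SE of 0.75. The brighter of the probe sets shared by Rrm2 and Rrm2l1 had 9.28 and 21.3 in TW, 20.1 and 62.2 in WR, 34.3 and 30.2 in DSW1200, against 54.6 and 52.7 in SeW, and was not tested because it names more than 1 gene.

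The cyclins of S phase and mitosis were higher in WR and SeW. All 4 tested members of this group, Ccna2, Ccnb1, Ccnb2 and Cks2, were above TW without overlap in both, and none passed the adjustment. Of all genes, 18.4% in WR and 22.1% in SeW were above TW without overlap. Ccna2, or cyclin A2, had 4.95 and 4.14 in TW, 18.4 and 19.7 in WR, 10.2 and 2.78 in DSW1200, while SeW had 25.3 and 13.8. Its differences were 2.07 in WR and 2.04 in SeW (SE 0.64, adjusted p = 0.446 and 0.127 by limma), against 0.24 in DSW1200. Ccna2 passed the filter only through WR and SeW, as its means in TW and DSW1200, 4.54 and 6.50, lay under 6.69. Its height in WR and SeW is thus partly fixed by the filter. Cks2, a small subunit of the cyclin-dependent kinase complex, had 26.6 and 21.4 in TW, 33.8 and 43.9 in WR, 32.1 and 31.1 in DSW1200, against 53.9 and 36.5 in SeW. Ccnb2, or cyclin B2, was between 16.7 and 20.2 in TW and DSW1200 and between 25.3 and 37.7 in WR and SeW. Cdk1, the kinase that these cyclins activate, was below the filter, with 1.00 and 5.16 in TW, 7.32 and 16.7 in WR, 8.10 and 1.00 in DSW1200, while SeW had 19.3 and 17.9. Ccnb1's second, dimmer probe set lay 1.61 below TW in DSW1200, where the one used lay 0.63 above.

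Mki67, which encodes the proliferation antigen Ki-67, and Top2a, the topoisomerase that untangles sister chromatids, stand for chromosome structure. Mki67 had 28.5 and 23.0 in TW, 39.6 and 57.6 in WR, 27.8 and 27.8 in DSW1200, against 56.2 and 40.2 in SeW. The WR and SeW arrays lay above all TW and DSW1200 arrays, by 0.90 and 0.89 from TW (SE 0.28, adjusted p = 0.443 and 0.121 by limma). Top2a had 8.64 and 9.0 in TW, 15.9 and 23.9 in WR, 20.4 and 14.4 in DSW1200, while SeW had 25.9 and 13.8, so that all 3 groups were above TW. A second, dimmer Top2a probe set was 2.39 and 2.71 above TW in WR and SeW but differed by 0.012 in DSW1200. The probe set that Hmgb2, a chromatin protein, shares with its near copies was not tested and had 83.1 and 62.4 in TW, 161 and 243 in WR, 160 and 116 in DSW1200, against 264 and 185 in SeW.

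The mitotic kinases and checkpoint genes were dim. Aurka, the spindle pole kinase, varied from 4.74 to 14.7 within TW alone. Aurkb and Birc5, both in the chromosomal passenger complex, differed from TW by at most 0.77 (SE 0.41) and 0.56 (SE 0.45). Bub1, a checkpoint kinase below the filter, had 4.12 and 1.00 in TW, 6.71 and 11.6 in WR, 6.20 and 6.69 in DSW1200, while SeW had 14.6 and 10.0. Bub1b, its checkpoint partner BubR1, was at the floor on 5 of the 8 arrays and highest in WR replicate 2, at 3.95. Plk1, a kinase of mitotic entry and exit, had 1.26 and 5.96 in TW, 1.00 and 11.3 in WR, 1.26 and 1.91 in DSW1200, and in SeW 1.51 and 1.59. For Plk1 the widest gap was that between the WR arrays. Ccne1, or cyclin E1, had 5.15 and 1.00 in TW, 6.08 and 9.06 in WR, the floor on both arrays in DSW1200, and in SeW 3.80 and 4.98. Cenpf, a kinetochore protein, had 1.00 and 4.64 in TW, 1.45 and 10.4 in WR, 5.91 and 1.00 in DSW1200, and in SeW 15.0 and 8.35. Kif20a, a kinesin of the central spindle, ran from 4.88 to 9.81 over the 8 arrays.

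Of the other spindle genes, Kif11, the motor that separates the poles, and Prc1, which bundles the midzone microtubules, differed from TW by at most 0.50 (SE 0.35) and 0.37 (SE 0.26) in size. A second, dimmer Kif11 probe set, at the floor on both TW arrays, gave 2.03 in WR, 0.52 in DSW1200 and 2.88 in SeW. Prc1 had 18.5 and 20.3 in DSW1200, below all other arrays, which ran from 24.4 to 35.5. Cdc20, the activator of the anaphase-promoting complex, had 5.56 and 4.64 in TW, 8.72 and 16.1 in WR, 14.4 and 8.64 in DSW1200, against 18.1 and 12.1 in SeW. Of its 5 probe sets the brightest gave 1.54 in SeW and the second brightest -0.81, so its direction depends on the probe set. Ube2c, the conjugating enzyme of that complex, lay 0.92 above TW in SeW (SE 0.49).

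SeW was then compared with DSW1200, the other treated water. The SeW mean was higher for 27 of the 30 members, against 46.9% of all genes, with a median difference of 0.49 for the members and -0.039 for all genes. No member was called by limma, against 2.72% of all genes, and 8 had an unadjusted p under 0.05 (20.0%). SeW was higher without overlap for 14 members (24.3%) and lower for 2 (29.5%). Pcna was closest to the threshold, at 0.94 above DSW1200 (SE 0.21, adjusted p = 0.0509 by limma). Its adjusted p by limma was 0.0296 and 0.0299 without TW replicate 1 or 2, 0.0787 and 0.0804 without either WR array, 0.125 and 0.153 without either DSW1200 array, and 0.257 and 0.194 without either SeW array. With the beta-actin ratio as a covariate Pcna lay 2.48 higher (adjusted p = 0.923 by limma). This ratio was 13.6 and 10.9 in SeW and 32.8 and 27.1 in DSW1200, so the ratio and the groups cannot be told apart. In the main fit Nusap1 lay 1.21 higher (SE 0.39, adjusted p = 0.128 by limma) and Ccna2 1.81 higher (SE 0.64, adjusted p = 0.159 by limma). T and intraepithelial lymphocyte markers also differed in this comparison, with a sum of 283 to 308 in SeW and 513 to 573 in DSW1200 over 15 measured genes, 10 of them tested, with Cd3e and Cd8a among those below the filter. All 10 tested genes had lower means in SeW, and Gzma and Gzmb, which encode granzymes, fell. In the same comparison 10 of 10 epithelial markers had higher means in SeW, of which Cldn7 was called, as had 11 of 12 villus enterocyte markers, while 10 of 11 myeloid markers had lower means. The part of these markers in the result was not tested.

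Between SeW and WR the members' median difference lay near that of all genes. The SeW mean was higher for 17 of the 30 members, against 46.3% of all genes, and the medians were 0.043 for the members and -0.042 for all genes. By limma no member was called (1.23% of all genes) and 1, Prim1, had an unadjusted p under 0.05 (16.5%). SeW was higher without overlap for 4 members (24.2%) and lower for 1 (30.0%). Prim1 lay 0.72 above WR (SE 0.31, adjusted p = 0.293 by limma), Mcm4 0.67 above (SE 0.50, adjusted p = 0.562 by limma) and Mcm7 0.57 below, at -0.57 (SE 0.42, adjusted p = 0.547 by limma). A p that misses the threshold does not show that the groups are alike. In SeW, all 10 tested epithelial and 12 villus enterocyte markers had higher means than in WR, and Cldn7 and Apoa4 were called. All 10 tested T and intraepithelial lymphocyte markers and 11 myeloid markers had lower means, and Gzma, Gzmb, C1qa and C1qc were called. The other marker lists had means on both sides. The part of these markers in the result was not tested.

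DSW1200 against WR went the other way. The DSW1200 mean was higher for 5 of the 30 members, against 49.4% of all genes, and the median difference was -0.37 for the members and -0.0047 for all genes. No member was called, as was true of all genes tested (0%), and by limma 7 members had an unadjusted p under 0.05 (5.84%). DSW1200 was lower without overlap for 15 members (18.0%) and higher for 1 (17.5%). Pcna lay at -0.94 (SE 0.21), Nusap1 at -1.20 (SE 0.39) and Ccna2 at -1.84 (SE 0.64), each with an adjusted p of 0.841 by limma. Across the 3 contrasts with TW, the moderated F test called no member (0.616% of all genes), and 10 members had an unadjusted p under 0.05 (17.6%). Nusap1 had the lowest F test value among the members, with an adjusted p of 0.0687 by limma. With 2 arrays against 2, the smallest exact permutation p is 0.333, so no single gene could pass by permutation.

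Other genes of the cycle, from lists that do not contain the members, were looked at for comparison. Of 45 other replication genes 27 were tested, and 17, 19 and 17 of them had means above TW in WR, DSW1200 and SeW, with medians of 0.28, 0.22 and 0.22. Of 60 other mitosis genes 27 were tested, with 19, 20 and 19 above TW and medians of 0.32, 0.32 and 0.71. Of 24 other genes of G1 to S control 15 were tested, with 9, 10 and 9 above TW and medians of 0.31, 0.12 and 0.031. None of these was called against TW by limma. At an unadjusted p under 0.05 with the mean above TW, by limma, there were 1, 1 and 2 of the replication genes, 5, 1 and 6 of the mitosis genes and 5, 1 and 2 of the G1 to S control genes in WR, DSW1200 and SeW, and below TW 1 mitosis gene in WR and 1 replication gene in SeW. Over all genes the share with the mean above TW at that threshold was 4.98%, 4.27% and 8.32%, so that the replication genes lay close to it.

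A few of these genes are given by their small p-values. Cdca3, which promotes entry into mitosis, had 4.64 and 12.9 in TW, 22.2 and 28.5 in WR, 14.7 and 9.95 in DSW1200, while SeW had 31.4 and 23.8, a difference of 1.82 from TW (adjusted p = 0.0838 by limma). Nuf2, a kinetochore protein, had 13.0 and 15.8 in TW, 28.1 and 30.3 in WR, 19.1 and 17.5 in DSW1200, against 25.3 and 18.6 in SeW. Rbl1, the pocket protein p107, had 18.5 and 12.3 in TW, 33.6 and 28.1 in WR, 19.2 and 36.2 in DSW1200, while SeW had 43.8 and 33.2, a difference of 1.34 from TW (adjusted p = 0.0838 by limma). The TW arrays were below the WR and SeW arrays for all 3 genes, a gap that picking by p-value favours. Among all genes, 18.4% in WR and 22.1% in SeW lay above TW without overlap. Ube2s, which elongates ubiquitin chains for the anaphase-promoting complex, was the 1 gene of these lists called in any comparison. It rose in SeW against DSW1200, with 70.9 and 81.5 against 36.0 and 31.0, a difference of 1.19 (adjusted p = 0.0391 by limma), while TW had 43.0 and 50.3.

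Inhibitors of the cyclin-dependent kinases, which hold cells out of the cycle, were also measured. Of 7 inhibitors 5 were tested, and 3, 2 and 1 of them had means above TW in WR, DSW1200 and SeW, with medians of 0.028, -0.0093 and -0.49. Cdkn1c, or p57, had 1296 and 1063 in TW, 941 and 586 in WR, 382 and 951 in DSW1200, against 469 and 451 in SeW, a difference of SeW from TW of -1.35 on the log2 scale (adjusted p = 0.0851 by limma). Cdkn1a, or p21, had 331 and 473 in TW, 395 and 412 in WR, 482 and 294 in DSW1200, while SeW had 233 and 269, a difference of -0.66 from TW (adjusted p = 0.188 by limma). Both SeW arrays were below both TW arrays for each of these inhibitors, picked by their small p-values, and neither was called. Of all genes, 29.1% were below TW without overlap in SeW. Cdkn1b, or p27, differed from TW by 0.070 in SeW.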

How the data were processed

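Per the labels, RNA from the intestinal epithelium was hybridised to Affymetrix Rat Genome 230 2.0 arrays, 2 for each of 4 groups. The authors deposited linear MAS5 signal intensity for every probe set (version not given in the sources used here). These intensities were quantile normalized over the 8 arrays, set to a floor of 1 and taken to log2, which makes differences of dim probe sets noisy. Of 31099 probe sets, 20826 name 1 gene, 436 several and 9837 none by the platform annotation, updated through RefSeq; the brightest single-gene probe set stood for its gene. Genes whose mean signal exceeded the median over the probe sets, 6.69, entered limma 3.58.1 in R 4.3.3 (lmFit, eBayes with intensity trend) over all 8 arrays in 6 contrasts and 1 F test, with Benjamini-Hochberg adjustment over 9258 genes and a threshold of 0.05. The fit was tested on simulated data. The number of arrays limits the precision. Promoters came from RefSeq (GRCr8).

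The members and lists were chosen with earlier results of these data known. Any of the 40 members could be named. Those called, the 3 with the smallest p in each contrast and those with the highest and lowest mean level were to be given in full, and from the other cycle and marker lists those called and at most 2 of the smallest p per list and contrast. The members nearest the filter, those with disagreeing probe sets and a few others were chosen after their values were seen. Alternatives were the deposited scale, median centring, other filters, an offset, the mean of probe sets, no trend, the beta-actin ratio as a covariate, a replicate block, fits of 4 arrays, leaving out each array, and a 2-fold criterion.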

Additional observations from a re-analysis of the deposited data

How the results depend on the processing

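On the deposited scale, where the median of all genes lay 0.92 above TW in SeW and 0.38 above TW in WR, the members called numbered 22 in SeW against TW, 11 in SeW against DSW1200 and 12 in the F test, where 47.5%, 40.4% and 29.9% of all genes were called. Without a filter, under a stricter one, after averaging probe sets, without the intensity trend, with the beta-actin covariate and with only the 4 arrays compared, 0 members were called in SeW against TW, where the main count was 1; in SeW against DSW1200 the stricter filter, the offset of 32 and the 4 arrays gave 1, Pcna, where the main count was 0. The 2-fold criterion gave 10 members in WR, 4 in DSW1200 and 11 in SeW against TW, 3 in SeW against DSW1200 and 2 in DSW1200 against WR, against 4.80%, 4.26%, 6.80%, 6.20% and 3.31% of all genes. The members' median less that of all genes was 0.17 in WR, 0.28 in DSW1200 and 0.19 in SeW against TW and 0.036 in DSW1200 against WR under the stricter filter, which left 3 members; with the offset it was 0.22 in WR, 0.14 in DSW1200, 0.29 in SeW and 0.18 in SeW against DSW1200, an offset shrinking dim differences by construction. With the covariate it was -0.026 in DSW1200 and 1.73 in SeW against TW, 1.89 in SeW against DSW1200, 1.07 in SeW against WR and -0.69 in DSW1200 against WR, and Mcm7 in SeW against WR turned to 1.42 (adjusted p = 0.979 by limma). The cause was not tested. Leaving out 1 array gave 0 to 2 members called in WR against TW, 0 to 3 in SeW against TW, 0 to 1 in SeW against DSW1200 and 0 to 3 in the F test. The highest came without TW replicate 1 (for SeW against DSW1200 also without TW replicate 2), when 2.34%, 5.60%, 4.70% and 4.40% of all genes were called; the lone array is assumed to vary like the other groups. Median centring moved the median of all genes to -0.12 in WR against TW, 0.11 in SeW against DSW1200 and 0.17 in SeW against WR, and changed no call of a member. Deviations of same-numbered arrays correlated at -0.065 to 0.040. These values show no strong shared shift, but they cannot exclude that same-numbered arrays were handled together. With a replicate block 1 member was called in SeW against TW (Nusap1, adjusted p = 0.0490 by limma) and 0 in the other comparisons.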
